A study of Mus musculus with 5 samples.

Results

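The Wnt genes described here were chosen by symbol from the RNA sequencing of the mouse dentate gyrus (DG), the part of the hippocampus in which new neurons are made in adult life. They were the Wnt, Fzd, Sfrp, Dkk and Rspo genes whose symbol continues with a number, together with Lgr4, Lgr5, Lgr6, Lrp5, Lrp6, Axin1, Axin2, Ctnnb1, Lef1, Tcf7l2 and Wif1. This gave 52 of the 23420 gene symbols measured. Frzb, the gene of secreted Frizzled-related protein 3, carries no such number in its symbol and is described with the other pathway genes.

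All mice were wild-type males of the outbred CD1 strain, 4 months old per the labels (the methods of the study give a younger age), and were housed for 4 weeks in 1 of 3 settings. LD mice lived alone with a locked disk, CE mice (complex environment) lived in company with a locked disk and tunnels, and RUN mice lived alone with a running disk. RNA of 8 mice was pooled for each of these groups, and the same 8 runners were also sequenced as 2 further pools of 4 mice, L-RUN with the lower and H-RUN with the higher running distances. Each group was therefore 1 library with no replicate, so no test between groups was possible, no p-value is given, and the spread between mice is unknown.

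The values were regularized log values on the log2 scale, a measure of read number that the DESeq2 program shrinks towards the mean of each gene. Counts were not analysed here, so the depth of the libraries is unknown. Differences between libraries are given on the same log2 scale, and a difference was called when it reached the study's cut-off of 0.3 in size. The 13550 genes with a mean of at least 5 over the 5 libraries are called expressed genes. The error of a difference between 2 libraries was estimated from the RUN library, which is made of the L-RUN mice and the H-RUN mice together. This technical SD was 0.036 over all expressed genes and lay between 0.022 and 0.047 at the levels of the Wnt genes, so that the cut-off was 6.34 to 13.5 technical SDs wide. It covers preparation and sequencing of the libraries and not the differences between mice. The 9 markers of granule cells, the main neurons of the DG, were all expressed, with means between 8.79 and 12.99. Markers of other cell types were present too, and their values are given beside those of Wnt4 and Dkk3. In such pools, fewer cells of a type and less RNA per cell cannot be told apart.

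Wnt proteins are secreted glycoproteins that carry a lipid. They bind Frizzled receptors (Fzd) together with the co-receptors Lrp5 and Lrp6. Without a Wnt signal, a complex built on Axin marks beta-catenin (Ctnnb1) for destruction, and with a signal beta-catenin accumulates and acts with Lef1, Tcf7l2 and related factors on target genes, Axin2 among them. R-spondins (Rspo) bind the receptors Lgr4, Lgr5 and Lgr6 and keep Frizzled on the cell surface, while Sfrp and Wif1 proteins bind Wnts and Dkk1 binds Lrp5 and Lrp6. In the adult DG, Wnt signals are known to favour the formation of neurons from stem cells of the subgranular zone.

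Of the 52 genes, 35 were expressed. They comprised 9 of 19 Wnt ligands, 11 of 12 receptors and co-receptors, 6 of 7 R-spondins and Lgr receptors, 4 of 9 secreted inhibitors and 5 of 5 intracellular genes. The other 17 had a mean below 5: Wnt1, Wnt3, Wnt3a, Wnt5b, Wnt6, Wnt8a, Wnt8b, Wnt10b, Wnt11, Wnt16, Fzd10, Rspo4, Dkk1, Dkk2, Dkk4, Sfrp5 and Wif1. Wnt3, known as a ligand that astrocytes supply to hippocampal stem cells, was the highest of these with a mean of 4.95. Dkk4 was listed at 0 in the 5 libraries, as were 4588 of all genes. None of the 17 could be judged by the cut-off: their largest range over the libraries was 0.132, in Wnt6, and even over all genes with a mean below 5 no range exceeded 0.289.

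To compare levels between genes, the log2 of the length of the longest transcript in kilobases was subtracted from the mean value. On this per-kilobase scale beta-catenin stood highest at 12.32, followed by Dkk3, a secreted protein related to the Dkk inhibitors, at 10.40. Wnt7b was the highest ligand at 8.78, ahead of Wnt7a at 6.83, Wnt4 at 6.60 and Wnt9a at 6.52. Among the Frizzled receptors Fzd3, known for its part in the guidance of axons, stood highest at 8.10, and the co-receptor Lrp6 at 7.76 stood above Lrp5 at 4.54. Lgr4 reached 7.86 and Lgr6 6.14, whereas Lgr5, a known marker of stem cells in the gut, was near the bottom at 2.99. Axin2 and Axin1 had nearly the same level per kilobase, 7.95 and 7.92.

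**Figure D1:**
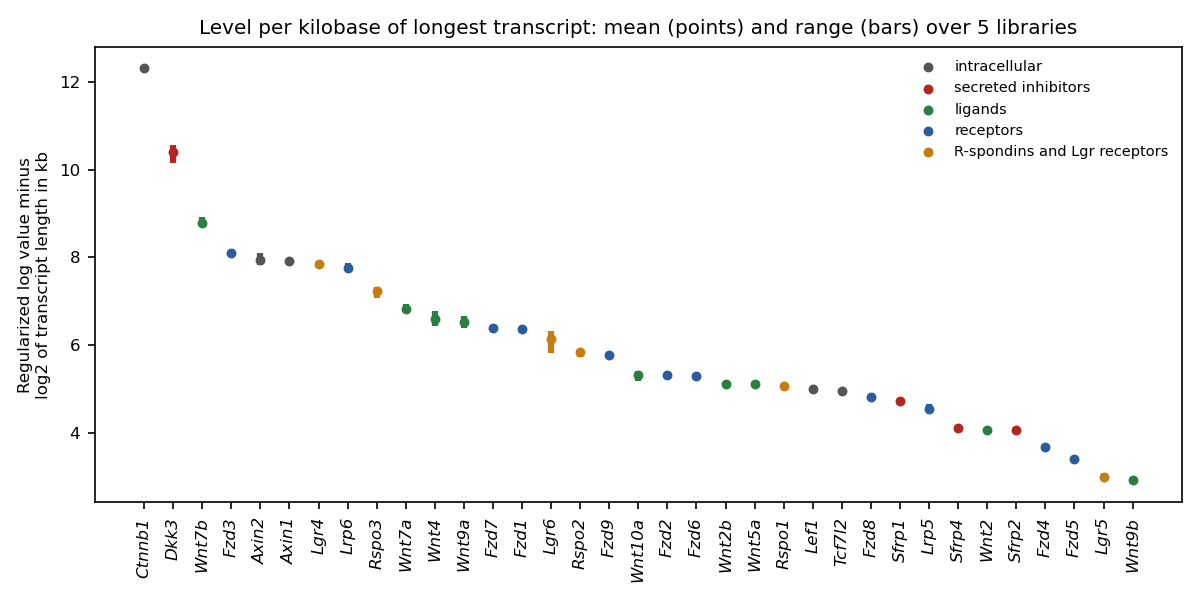
Mean regularized log value minus the log2 of transcript length in kilobases (vertical axis) of the 35 expressed Wnt genes, ordered from high to low and coloured by role, with bars for the range over the 5 libraries. Levels ran from 12.32 in Ctnnb1 to 2.92 in Wnt9b, a spread far wider than the range of any gene over the libraries, the widest of which was 0.505 in Lgr6.

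Few of the expressed Wnt genes differed from LD by the cut-off, and those that did were 3 genes with different roles. In CE, 2 of 35 were called, Lgr6 and Wnt4, where 0.598% of all expressed genes were. In RUN and in H-RUN 1 of 35 was called, Lgr6, against backgrounds of 1.31% and 0.827%. In L-RUN 2 of 35 were called, Lgr6 as higher and Dkk3 as lower, against 3.13%. Between H-RUN and L-RUN 1 of 35 was called, Dkk3, against 1.54%. Over the 5 libraries 3 of 35 had a range of at least 0.3, against 5.12% of the expressed genes. A single gene is 2.86% of 35, so counts of 1 or 2 genes can be set against these shares only coarsely. All contrasts with LD share that 1 library.

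**Figure D2:**
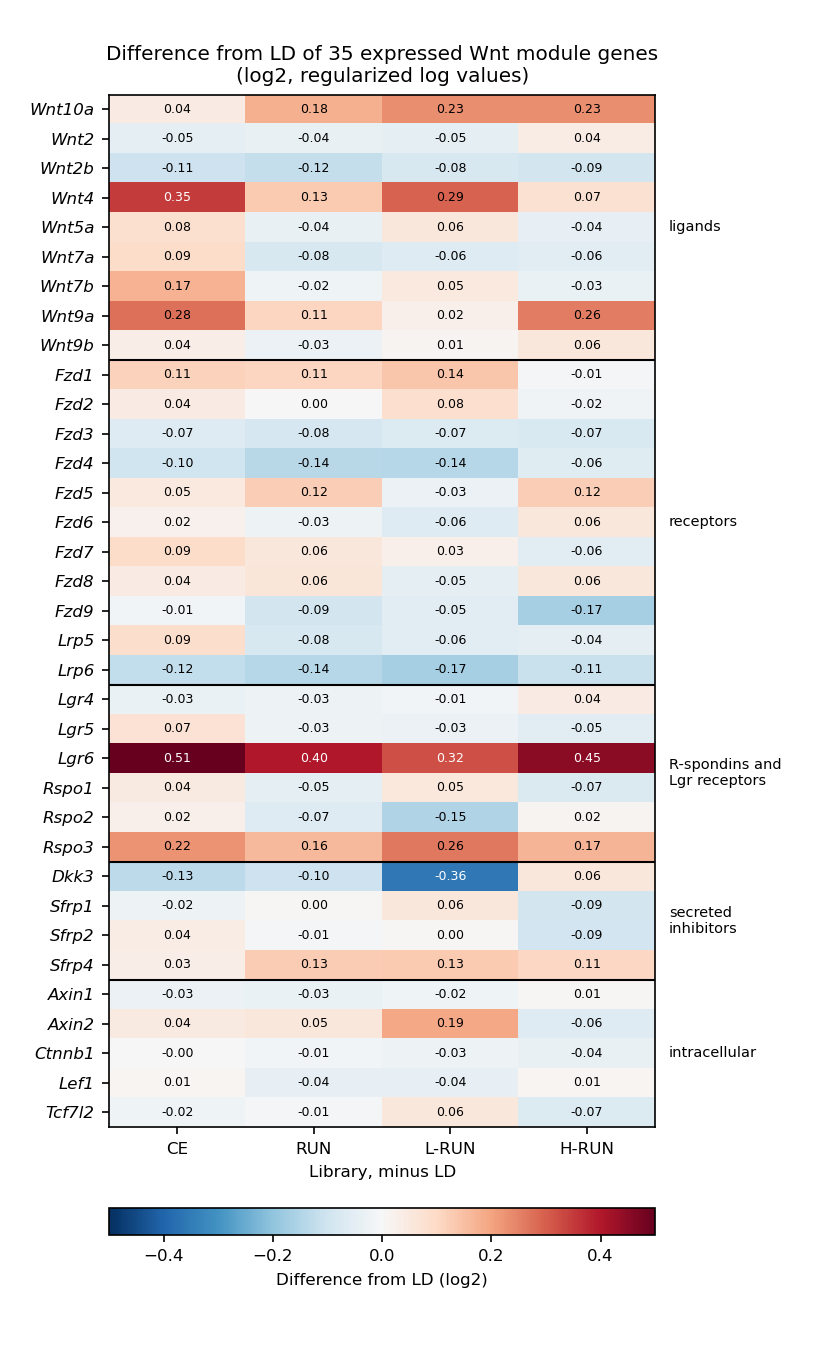
Difference from LD (log2, colour and printed number) of the 35 expressed Wnt genes in CE, RUN, L-RUN and H-RUN, in rows grouped by role. The Lgr6 row is higher in the 4 columns (0.32 to 0.51), Wnt4 is highest in CE (0.35), and Dkk3 is lower in L-RUN (-0.36).

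The start regions of 4 of these genes are shown as DNA, because beta-catenin acts through factors that bind a short element near its targets. The element searched, called the core here, was a form of the TCF/LEF motif, CTTTGA, or TCAAAG on the other strand. Other forms of the motif were not searched. The core was searched in the 250 bases before each start listed for a gene in a set of promoter regions (GRCm38.p6). These starts can differ from the annotated ones, and parts of the regions of Lgr6 and Wnt4 lie inside the annotated gene. In all, 34 of the 52 genes had such a region and 18 had none in the table. These genes had 42 regions, since some have several starts, and the core was found in 5 of the regions (11.9%), 1 each of Dkk1, Fzd1, Lef1, Wnt11 and Wnt5b. Of 32851 regions of all genes 13.8% held it. The regions of the Wnt genes were richer in G and C, with a median of 66.8% against 52.4%. The sequences below are those of Lgr6 and Wnt4, the genes called in CE, of Axin2, the feedback gene of the pathway, and of Fzd1, a receptor with the core. They are written 5′ to 3′ on the strand of the gene, without bases that lie in an annotated exon, and the core is in capitals.
Lgr6, chr1:135105375-135105526, minus strand: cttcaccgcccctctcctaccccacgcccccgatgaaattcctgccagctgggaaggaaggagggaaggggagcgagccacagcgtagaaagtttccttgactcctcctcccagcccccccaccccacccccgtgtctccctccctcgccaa
Wnt4, chr4:137277385-137277488, plus strand: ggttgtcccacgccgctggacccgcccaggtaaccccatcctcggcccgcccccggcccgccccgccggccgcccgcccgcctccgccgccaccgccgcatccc
Axin2, chr11:108920099-108920348, plus strand: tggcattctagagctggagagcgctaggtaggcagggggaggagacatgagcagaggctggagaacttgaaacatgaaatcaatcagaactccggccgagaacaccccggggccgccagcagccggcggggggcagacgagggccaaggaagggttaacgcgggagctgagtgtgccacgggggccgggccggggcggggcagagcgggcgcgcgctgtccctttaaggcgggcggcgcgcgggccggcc
Fzd1, chr5:4758217-4758466, minus strand: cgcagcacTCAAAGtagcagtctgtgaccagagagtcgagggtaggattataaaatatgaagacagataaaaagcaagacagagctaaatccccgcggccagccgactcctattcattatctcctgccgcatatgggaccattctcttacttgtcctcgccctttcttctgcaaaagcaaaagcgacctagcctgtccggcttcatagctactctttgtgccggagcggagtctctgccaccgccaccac
In Fzd1 the core began at position -242, counted back from the start listed for its region. It was not found in the 250-base regions of Lgr6, Wnt4 and Axin2, which says only that these letters are absent there.

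Among the ligands, 7 of 9 had a higher value in CE than in LD, with a median difference of 0.081. The median of all expressed genes was -0.0018, and 6663 of 13550 were higher in CE. In the running libraries the ligands were divided: 3 of 9 were higher than LD in RUN, 5 of 9 in H-RUN and 6 of 9 in L-RUN, with medians of -0.030, 0.037 and 0.023. Of these differences, only that of Wnt4 in CE reached the cut-off.

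Wnt4, a ligand known mainly from the development of kidney and gonads (chr4:137277489-137299726, plus strand, GENCODE annotation of GRCm38), had values of 8.50 in LD, 8.85 in CE, 8.63 in RUN, with 8.79 for L-RUN and 8.58 for H-RUN. CE and L-RUN were the high libraries and lay 0.055 apart, while LD, H-RUN and RUN were low and followed each other in steps of 0.075 and 0.055, each below 2 technical SDs of 0.047. The step from RUN to L-RUN was 0.164, or 3.46 technical SDs. Wnt4 was thus 0.35 higher in CE than in LD, or 27.3%, and this was called. In L-RUN the difference was 0.29, just short of the cut-off, and it was called after removal of the trend with transcript length (0.32). H-RUN stood -0.22 from L-RUN.

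For most markers of leptomeningeal fibroblasts, cells of the membranes that cover the brain, L-RUN was highest, RUN next and CE close to LD. Dcn was highest in CE, and for Lum, Col1a1, Col1a2 and Ogn the CE value was above that in RUN. The 22 markers had medians of 0.045 in CE, 0.139 in RUN, with 0.276 for L-RUN and -0.0034 for H-RUN against LD, and 3, 5, 9 and 0 of them were called as higher. In H-RUN 2 were called as lower. The log2 of their summed level was 12.1 in LD, 12.3 in CE, 12.2 in RUN, with 12.5 for L-RUN and 12.0 for H-RUN. The 3 called in CE were Col1a1 (0.39), Col1a2 (0.45) and Dcn (0.37), which encode 2 collagen chains and the proteoglycan decorin, while 5 of 22 were lower there than in LD. None of the 22 was at 0, and 18 were expressed. The part of such cells in the values of Wnt4 was not tested.

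Wnt9a had values of 8.12 in LD, 8.39 in CE, 8.22 in RUN, with 8.14 for L-RUN and 8.37 for H-RUN. This ligand, known from joint formation and blood stem cells, was high in CE and H-RUN, which were 0.021 apart, and low in LD and L-RUN, which were 0.023 apart. Its differences of 0.28 in CE and 0.26 in H-RUN stayed below the cut-off. Within the runners H-RUN was 0.23 above L-RUN, so Wnt9a and Wnt4 were ordered oppositely in the 2 pools. Wnt9a overlaps the annotated gene Gm51865, and whether strand was used in counting is not given in the sources used here. The same limit holds for other genes with an overlap, among them Wnt2b, Lrp5, Lrp6, Fzd3, Fzd6, Rspo1, Lgr5, Axin1, Tcf7l2 and Ctnnb1.

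Wnt10a, a ligand of skin and teeth, had values of 6.47 in LD, 6.52 in CE, 6.65 in RUN, with 6.71 for L-RUN and 6.71 for H-RUN. The 3 libraries of runners were above both others, by 0.136 at the nearest pair, or 3.11 technical SDs, and the largest difference from LD was 0.23. Wnt10a overlaps the annotated gene Gm32099.

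Wnt7b and Wnt7a, ligands that act on the vessels of the brain through Reck and Gpr124, were highest in CE. Wnt7b had values of 10.51 in LD, 10.68 in CE, 10.49 in RUN, with 10.56 for L-RUN and 10.48 for H-RUN. Wnt7a had values of 8.52 in LD, 8.61 in CE, 8.44 in RUN, with 8.46 for L-RUN and 8.46 for H-RUN. For both, CE was above LD by less than 0.2 (0.17 and 0.093) and each running library was within 0.081 of LD. Wnt7b overlaps the annotated gene AU022754 and Wnt7a the annotated gene Gm30437. The remaining expressed ligands, Wnt2, Wnt2b, Wnt5a and Wnt9b, had ranges of 0.087 to 0.123 over the 5 libraries.

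**Figure D3:**
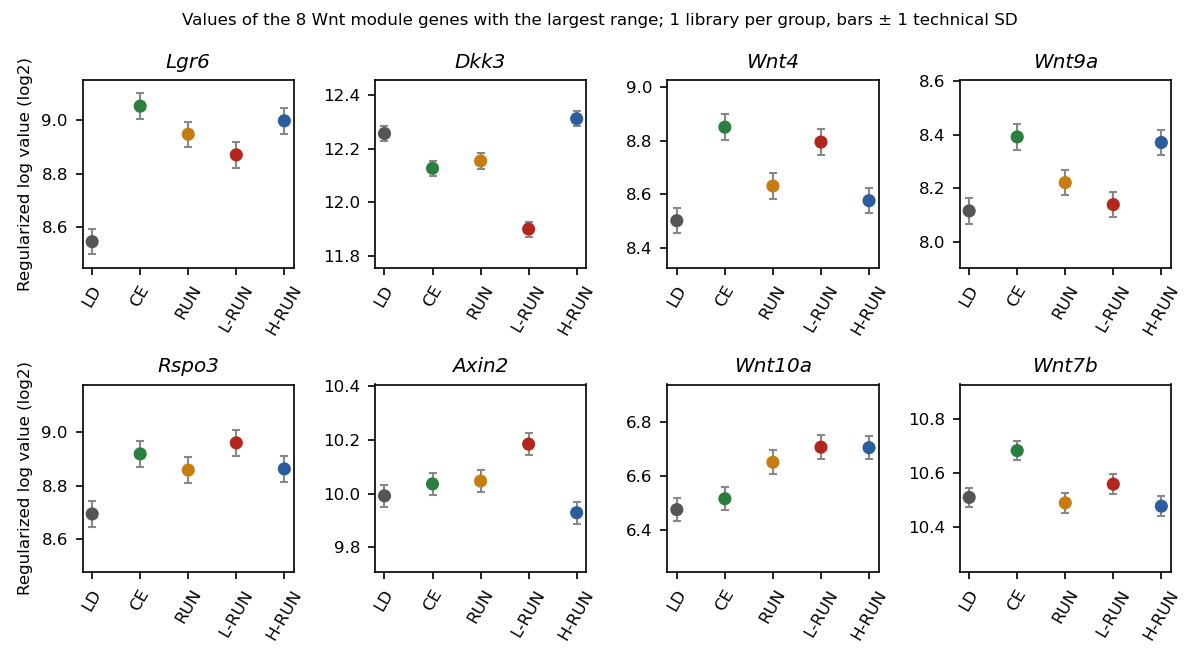
Regularized log values (log2, vertical axis) of the 8 Wnt genes with the largest ranges in the LD, CE, RUN, L-RUN and H-RUN libraries, with 1 point per library. Bars are 1 technical SD to either side, which is the error of a difference between 2 libraries and not of a single value. Lgr6 is lowest in LD (8.55 against 8.87 to 9.05), Dkk3 is lowest in L-RUN (11.90), and Wnt4 is high in CE and L-RUN.

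Of the receptors and co-receptors, none was called in any comparison, and the ranges of the 11 expressed genes were 0.085 to 0.170. Their medians against LD were 0.041 in CE, -0.026 in RUN, with -0.055 for L-RUN and -0.044 for H-RUN. In either pool of runners 8 of 11 were below LD, as were 6874 of 13550 expressed genes in L-RUN and 7046 in H-RUN. With the length trend removed 4 of 11 were below LD in L-RUN and 5 of 11 in H-RUN, and the medians turned to 0.058 and 0.0025.

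The co-receptor Lrp6 had values of 11.09 in LD, 10.97 in CE, 10.95 in RUN, with 10.93 for L-RUN and 10.98 for H-RUN. LD was the highest library, and the 4 others lay within 0.055 of each other. Its relative Lrp5 had values of 7.71 in LD, 7.80 in CE, 7.63 in RUN, with 7.65 for L-RUN and 7.66 for H-RUN. Here CE was highest, and the running libraries were below both LD and CE, by at most 0.082 from LD. With the length trend removed the direction of Lrp5 turned in the runners, to 0.0079 in RUN and 0.062 in L-RUN, and the difference of Lrp6 in L-RUN shrank from -0.167 to -0.041.

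Fzd9, a receptor known from the hippocampus and from Williams syndrome, had values of 7.04 in LD, 7.02 in CE, 6.94 in RUN, with 6.98 for L-RUN and 6.87 for H-RUN. Its lowest value was in H-RUN, -0.167 from LD. Fzd1 had values of 8.37 in LD, 8.48 in CE, 8.48 in RUN, with 8.51 for L-RUN and 8.36 for H-RUN, so that LD and H-RUN were together at the lower end. Fzd7 had values of 8.54 in LD, 8.63 in CE, 8.60 in RUN, with 8.57 for L-RUN and 8.48 for H-RUN. H-RUN was thus the lowest library for these 3 receptors, by small amounts.

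Fzd5 was highest in H-RUN and RUN, with values of 6.13 in LD, 6.18 in CE, 6.25 in RUN, with 6.10 for L-RUN and 6.25 for H-RUN. Its RUN value was 0.074 above that of the computed mixture of the 2 pools, the largest such residual of the 35 genes. Fzd4, the receptor of Norrin in retinal and brain vessels, had values of 6.50 in LD, 6.40 in CE, 6.36 in RUN, with 6.36 for L-RUN and 6.44 for H-RUN, highest in LD. Fzd4 overlaps Tmem135. Fzd2, Fzd3, Fzd6 and Fzd8 had ranges of 0.085 to 0.120.

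The R-spondins and their receptors held the gene with the largest range. Lgr6, a receptor of R-spondins that marks stem cells of the skin (chr1:134983301-135105276, minus strand, GENCODE annotation of GRCm38), had values of 8.55 in LD, 9.05 in CE, 8.95 in RUN, with 8.87 for L-RUN and 8.997 for H-RUN. LD was low, and the 4 other libraries were high and lay within 0.182 of each other, with steps of 0.050 to 0.077 between neighbours, or 1.06 to 1.62 technical SDs. The step from LD to the nearest library, L-RUN, was 0.324, or 6.84 technical SDs. Lgr6 was therefore called in the 4 contrasts with LD, at 41.9% higher in CE, 32.0% in RUN, 36.6% in H-RUN and 25.1% in L-RUN. Its range was larger than that of 99.1% of expressed genes.

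The calls of Lgr6 rest on the LD library alone. Against the mean of LD and CE, the differences were 0.15 in RUN and 0.071 in L-RUN, and no running library was called. H-RUN and L-RUN differed by 0.13, below the cut-off. In the other direction, removal of the trend with transcript length (6675 bases in Lgr6) raised the L-RUN difference to 0.41.

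Rspo3, an R-spondin known from the growth of vessels, had values of 8.69 in LD, 8.92 in CE, 8.86 in RUN, with 8.96 for L-RUN and 8.86 for H-RUN. As for Lgr6, LD was lowest, here by 0.164 or 3.46 technical SDs, and the others lay within 0.101, but no difference reached the cut-off. Rspo2, an R-spondin of limb and lung, had values of 7.62 in LD, 7.64 in CE, 7.55 in RUN, with 7.47 for L-RUN and 7.63 for H-RUN, with only L-RUN more than 0.1 below LD. Rspo1, Lgr4 and Lgr5 had ranges of 0.076 to 0.126, so the high values of Lgr6 in CE and the runners were not seen in its 2 relatives.

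Among the genes grouped by symbol as secreted inhibitors, Dkk3 stood out by level and by its order over the libraries. Dkk3 (chr7:112116017-112159057, minus strand, GENCODE annotation of GRCm38) had values of 12.26 in LD, 12.13 in CE, 12.15 in RUN, with 11.90 for L-RUN and 12.31 for H-RUN. The L-RUN library was low by 0.227, or 8.05 technical SDs of 0.028, from the next library, CE. The highest libraries were H-RUN and LD, which were 0.055 apart. RUN lay between the 2 pools of which its mice were taken, 0.033 above the value computed for their mixture. In L-RUN Dkk3 differed from LD by -0.36, or -21.9%, and H-RUN was 32.98% above L-RUN (0.41). These were the 2 contrasts in which it was called.

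Markers of CA pyramidal cells, the neurons of the neighbouring hippocampal fields, were lower in L-RUN than in LD for 7 genes, while Bok was higher (0.045). Their 8 genes had medians of -0.038 in CE, -0.094 in RUN, with -0.333 for L-RUN and 0.086 for H-RUN against LD, 5 were called as lower in L-RUN, and 4 were called as higher in H-RUN than in L-RUN. The log2 of their summed level was 13.6 in LD, 13.5 in CE, 13.5 in RUN, with 13.3 for L-RUN and 13.6 for H-RUN. Neurod6, a transcription factor of these neurons, was -0.34 from LD in L-RUN, and Wfs1 was -0.33. Both were above LD in H-RUN, by 0.17 and 0.18. Fibcd1 differed from this order, being called as lower than LD in every running library: -0.46 (RUN), -0.46 (L-RUN) and -0.52 (H-RUN). Its CE value was called as higher (0.31), and its H-RUN value was -0.063 from L-RUN. Bok was called as higher than LD in H-RUN (0.41). All 8 were expressed. Lower medians in L-RUN than in LD were also seen for markers of oligodendrocytes (-0.201), granule cells (-0.117) and astrocytes with radial glia (-0.081). The granule cell markers were divided, with 4 of 9 above LD. C1ql2 (0.37) and Plk5 (0.36) were called as higher and Prox1 (-0.41) as lower. The trend with transcript length was not removed from the marker values. Markers of mossy cells, thalamus and habenula, choroid plexus, endothelial cells and neuroblasts had medians between -0.013 and 0.128. The part of the makeup of the L-RUN pool in the value of Dkk3 was not tested.

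**Figure D4:**
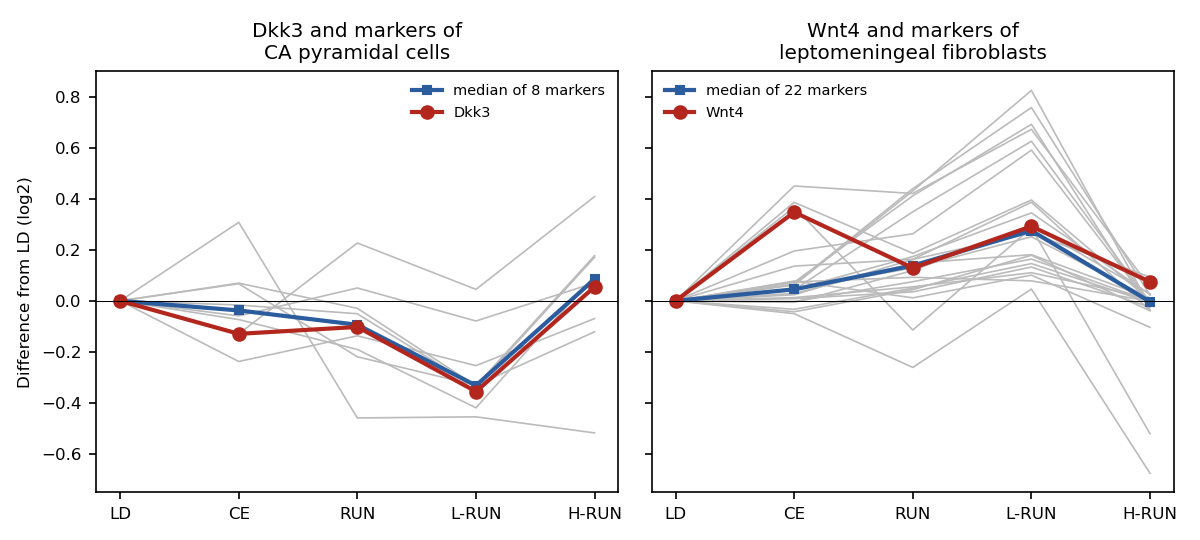
Difference from LD (log2, vertical axis) in each library of Dkk3 with 8 markers of CA pyramidal cells (left) and of Wnt4 with 22 markers of leptomeningeal fibroblasts (right), where grey lines are single markers, the blue line is their median and lines only join the values of 1 gene. In L-RUN Dkk3 is at -0.36 and the pyramidal median at -0.33, whereas in CE Wnt4 is at 0.35 and the fibroblast median at 0.045.

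The Sfrp genes, whose proteins bind Wnts outside the cell, moved little. Sfrp1 had values of 6.85 in LD, 6.83 in CE, 6.86 in RUN, with 6.91 for L-RUN and 6.76 for H-RUN. Sfrp2 had values of 5.08 in LD, 5.12 in CE, 5.08 in RUN, with 5.09 for L-RUN and 4.99 for H-RUN. Both were lowest in H-RUN, by less than 0.1 from LD. Sfrp4 had values of 6.03 in LD, 6.07 in CE, 6.16 in RUN, with 6.17 for L-RUN and 6.14 for H-RUN, with the runners 0.11 to 0.13 above LD.

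Inside the cell, beta-catenin had values of 14.19 in LD, 14.19 in CE, 14.18 in RUN, with 14.17 for L-RUN and 14.16 for H-RUN. Its range of 0.037 was the smallest of the 35 genes. Axin1, Lef1 and Tcf7l2 had ranges of 0.041, 0.051 and 0.124. Axin2, the negative regulator whose transcription follows beta-catenin activity in many tissues, had values of 9.99 in LD, 10.04 in CE, 10.05 in RUN, with 10.19 for L-RUN and 9.93 for H-RUN. The value in L-RUN was high by 0.138, or 3.42 technical SDs, from RUN, and the other libraries followed in steps below 2 technical SDs. H-RUN was -0.26 from L-RUN, short of the cut-off.

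Seen over the 35 genes, the median difference from LD was 0.036 in CE, where 23 of 35 were higher than LD, and -0.026 in RUN, where 13 of 35 were. It was -0.014 in L-RUN with 17 higher and -0.018 in H-RUN with 16 higher, and between the 2 pools of runners it was -0.0055. The small negative medians turned with the length trend removed, to 0.036 in L-RUN, 0.0091 in H-RUN and 0.0039 in RUN, while CE stayed at 0.036. The medians of all expressed genes in these 5 contrasts lay between -0.0035 and 0.0028. CE was the highest library for 12 of 35 Wnt genes (34.3%) and for 22.9% of expressed genes, and H-RUN was the lowest for 13 of 35 (37.1%) and for 15.7%. The median range of the Wnt genes was 0.143, that of all expressed genes 0.124, and for 12 of 35 the range was below 3 technical SDs. For 22 of 35 genes the RUN value was between those of its 2 pools (62.9%), near the share of 58.3% of all expressed genes.

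**Figure D5:**
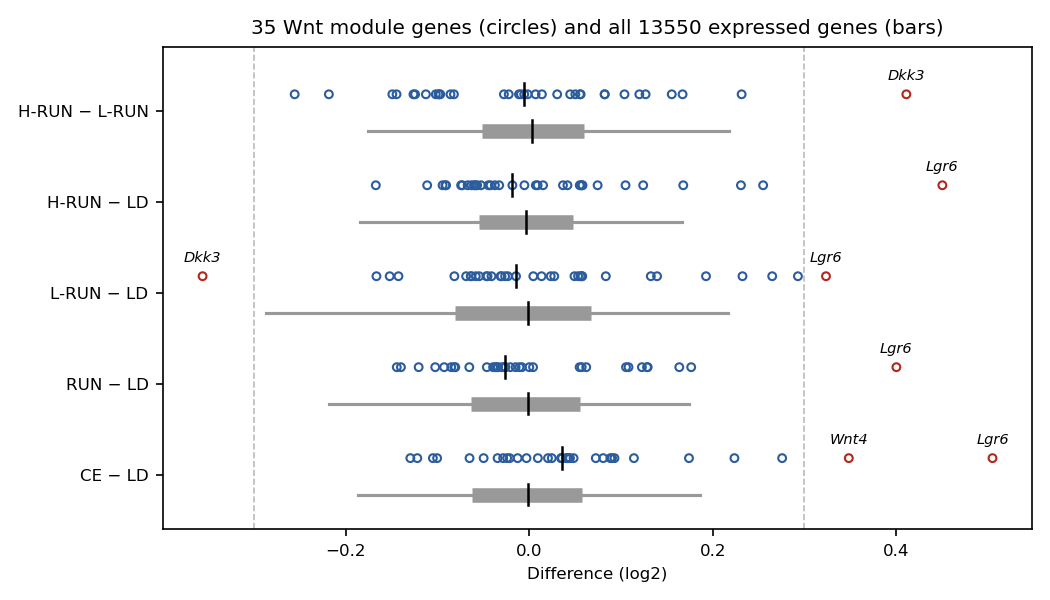
Differences (log2, horizontal axis) of the 35 expressed Wnt genes (circles, red where called) in 5 contrasts, above grey bars for all 13550 expressed genes (thick from the 25th to the 75th percentile, thin from 2.5 to 97.5), with black ticks at medians and dashed lines at the cut-off of 0.3. Lgr6 lies beyond the cut-off in the 4 contrasts with LD, Dkk3 in both contrasts that use L-RUN, and Wnt4 in CE.

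Some Wnt genes are neighbours in the genome, so their values could be compared across a short distance. Wnt6 and Wnt10a lie 6.70 kb apart on chromosome 1, Wnt3a and Wnt9a 16.1 kb apart on chromosome 11, and Wnt10b and Wnt1 11.7 kb apart on chromosome 15. In each of the first 2 pairs only one gene was expressed, with levels per kilobase of 5.31 in Wnt10a and 2.90 in Wnt6, and of 6.52 in Wnt9a and -1.94 in Wnt3a. Wnt9b and Wnt3 overlap by 1098 bases on chromosome 11 in RefSeq, and reads in the shared bases cannot be told apart here. In the GENCODE annotation they do not overlap.

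The rest of the pathway was followed in 77 further genes in 6 lists, which were measured without exception (Adgra2 under its older symbol Gpr124), and 71 were expressed. Of these, 1 was called in RUN, 3 in L-RUN, 1 in H-RUN, 0 in CE and 0 between H-RUN and L-RUN, all as lower. The backgrounds given above count both directions. Of all expressed genes called, 129 of 178 in RUN, 316 of 424 in L-RUN and 64 of 112 in H-RUN were lower.

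Among the 11 other secreted modulators, Frzb, the inhibitor that granule neurons are known to secrete, had values of 10.56 in LD, 10.39 in CE, 10.28 in RUN, with 10.34 for L-RUN and 10.23 for H-RUN. LD was the highest library, and the difference reached the cut-off in H-RUN alone (-0.32), with -0.28 in RUN and -0.22 in L-RUN. Trabd2b, a membrane protease that cleaves Wnts, had the next largest range, 0.288, from 6.64 in H-RUN to 6.93 in CE. Among the 13 genes of Wnt release and other receptors, none was called, and Gpr124 (0.210) and Kremen1, a receptor of Dkk1 (0.171), had the largest ranges.

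Of the 22 cytoplasmic genes, the kinase Tnik was called as lower in L-RUN (-0.38), and Dvl3, one of the Dishevelled proteins that pass the signal on, had a range of 0.245. Of the 12 nuclear genes, Pygo1, a coactivator of beta-catenin, was called as lower in RUN (-0.33) and in L-RUN (-0.35). Its partner Bcl9l had a range of 0.280. Of the 11 genes of planar cell polarity, a branch of Wnt signalling without beta-catenin, Prickle2 was called as lower in L-RUN (-0.32), and the atypical cadherin Celsr2 had a range of 0.355.

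These genes have long transcripts, of 12276 bases in Tnik, 10598 in Celsr2, 7916 in Pygo1 and 7860 in Prickle2. In L-RUN the median difference from LD of all expressed genes fell with transcript length, from 0.072 in the group of shortest transcripts to -0.097 in that of the longest, out of 5 groups of equal size. With this trend removed, none of Tnik, Pygo1 and Prickle2 reached the cut-off in L-RUN, at -0.24, -0.25 and -0.21, and Pygo1 was no longer called in RUN either, at -0.25, whereas Frzb in H-RUN stayed at -0.33.

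The 8 Wnt target genes had medians of 0.049 in CE, 0.011 in RUN, with 0.020 for L-RUN and -0.020 for H-RUN, and none was called. Cd44, a receptor of hyaluronan, came nearest, and with the length trend removed its difference in CE was 0.33, past the cut-off. It had values of 8.21 in LD, 8.51 in CE, 8.30 in RUN, with 8.35 for L-RUN and 8.23 for H-RUN, a difference of 0.299 in CE. Ccnd1, which drives the cell cycle, had values of 9.58 in LD, 9.73 in CE, 9.56 in RUN, with 9.57 for L-RUN and 9.45 for H-RUN. Both were highest in CE.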

How the data were processed

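The deposited values were regularized log values (log2), 1 for each gene in each library. Per the labels and the methods, the authors mapped reads of polyA RNA to mm10 with TopHat2 2.0.10 after CASAVA 1.8.2, assigned them to RefSeq genes with HTSeq, and normalized the 5 libraries at once with DESeq2 1.10.1. The shrinkage of low counts could not be undone. Depth is unknown, so no counting interval was computed and no count model was fitted.

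From these values, differences between libraries were taken and called at 0.3, for genes with a mean of at least 5. The technical SD came from the median absolute deviation of RUN minus the log2 of the mean of its 2 pools, taken on the linear scale, per decile of expression, scaled to a difference of 2 libraries as if all libraries were equally noisy and the mixture equal. Lengths (longest transcript, found for 94.2% of expressed genes) and positions came from the GENCODE annotation of GRCm38 by symbol. Neighbours came from RefSeq GRCm38.p6, and start regions from a set of promoter regions on that build, whose starts can differ from the annotated ones. Trends with length were removed with lowess (fraction 0.3). Named were the genes past the cut-off in a contrast or by range, further genes by range up to 20, and in each other pathway list the called genes and the 2 with the largest range. The genes and lists were chosen with earlier results of these data known. Markers of 10 cell types (98 genes) were followed. Alternatives were cut-offs of 0.2, 0.4 and 3 technical SDs, other minimum means, quantile normalization, median centring, removal of the length trend, LD and CE averaged as the baseline, and leaving out each library. The scripts were tested on simulated data. The tools were statsmodels 0.14.6, scipy 1.17.1, pandas 2.3.3, matplotlib 3.10.9 and numpy 2.4.6 under python 3.11.15.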

Additional observations from a re-analysis of the deposited data

Results flagged for a closer look

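Dkk3 was marked for a closer look because H-RUN was 0.411 above L-RUN, with L-RUN at -0.36 from LD (called) and H-RUN at 0.055, which was not called and was under 2 technical SDs. With 1 library for each pool, the difference was not tested.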

How the results depend on the processing

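The number of Wnt genes called followed the cut-off. At 0.4 the counts were 1 in CE (Lgr6), 1 in RUN, 0 in L-RUN, 1 in H-RUN and 1 between H-RUN and L-RUN. The shares of expressed genes called there were 0.185%, 0.384%, 1.36%, 0.28% and 0.598%. At 0.2 the counts were 4 in CE, 1 in RUN, 5 in L-RUN, 3 in H-RUN, 4 between H-RUN and L-RUN and 8 by range. The shares of expressed genes called at 0.2 were 3.77%, 4.66%, 9.93%, 3.31%, 4.93% and 17.7%. At 3 technical SDs the counts were 7 in CE, 9 in RUN, 10 in L-RUN, 7 in H-RUN and 9 between H-RUN and L-RUN. There, 23.7%, 24.3%, 32.7%, 18.8% and 22.1% of expressed genes were called. Against the mean of LD and CE the counts were 0 in RUN, with 0 for L-RUN and 0 for H-RUN, at shares of 0.62%, 2.01% and 0.694% of expressed genes. Leaving out 1 library gave 1 to 3 genes with a range of at least 0.3: Dkk3 alone without LD, Dkk3 and Lgr6 without CE, and Lgr6 and Wnt4 without L-RUN. The shares of expressed genes were 3.28% without LD, 4% without CE, 5.08% without RUN, 2.6% without L-RUN and 4.36% without H-RUN. Quantile normalization and removal of the length trend each gave 3 genes in L-RUN, Wnt4 being added, where 2.94% and 2.2% of expressed genes were called. Median centring and other minimum means changed no count. Of the differences of the 20 named genes, no called one changed direction. A shift of 1 technical SD or more was seen for 2 differences under quantile normalization, 24 without the length trend and 27 against the mean of LD and CE, and for none under median centring. Removal of the length trend from the other pathway genes and from the counts by role was added after seeing the data. No paired analysis was possible because each group was 1 library. The unknown depth leaves the precision of differences to the technical SD, which holds no spread between mice.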
